A study of Atriplex lentiformis with 9 samples.

Results

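Heat shock proteins and their partners are the molecular chaperones of the cell, and here they are the 39 entries, of 5164 listed, whose names mark them as small heat shock proteins, HSP90, HSP70, HSP100 or chaperonin proteins, DnaJ or BAG co-chaperones, or heat stress transcription factors. Members were chosen by a pattern of names, set with earlier results of these data known. The rule of choice also names HS181 and HS901. They comprised 8 small heat shock proteins, 3 HSP90, 7 HSP70, 2 HSP100, 1 chaperonin, 9 DnaJ, 2 BAG and 6 factor entries, and HSP22, which the name pattern left in a class of its own. The heat stress factor entry HSFC1 was left out of the 39 by the rule, although its name matches the pattern.

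The samples were roots of quailbush (Atriplex lentiformis), a salt-tolerant shrub, grown for 11 weeks in mine tailings amended with compost. The 3 treatments were 10% compost (TC10), 15% compost (TC15) and 20% compost (TC20), and all roots came from tailings. RNA sequencing values of 8 single plants were used, 2 of TC10 (plants 2 and 4), 3 of TC15 (plants 2, 6 and 10) and 3 of TC20 (plants 3, 5 and 9). A file deposited for TC10 plant 5 carried the header of TC15 plant 6 and the same value in each of its 4995 entries. The 2 files were used once, as TC15 plant 6. The labels name no plant line, and no group without tailings is among the samples used here.

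Chaperones bind proteins that are unfolded or in the course of folding. Small heat shock proteins hold denatured proteins without using ATP, HSP70 with its DnaJ partners refolds them in cycles of ATP hydrolysis, HSP90 acts late in the maturation of kinases and receptors, and HSP100 disaggregases pull proteins back out of aggregates. BAG proteins release the nucleotide from HSP70, and heat stress factors switch on the genes of many members. In plants these genes are known to respond to heat, and part of them also to heavy metals, salt and drought. Roles given below are known from Arabidopsis thaliana, after whose proteins the entries are named.

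Each value is a read count that the authors normalised between libraries, called a normalised read here. An entry stands for the quailbush transcripts matched to that Arabidopsis protein, so entries of close paralogs, such as the HSP70 entries HSP7C, MD37C and MD37E, are uncertain. Values are not scaled to transcript length, and levels are therefore not compared between entries. Over the listed entries the libraries held 3030394 to 4752637 reads, with 4995 to 5055 entries listed. Shares of reads below are shares of these reads, not of all reads sequenced. Of 20 root marker genes, 9 were listed, and their summed value lay between 7566 normalised reads (TC10 plant 2) and 17509 (TC20 plant 9). The Casparian strip genes CASP1 to CASP5 were not listed, and the root hair gene COBL9 was at 0 in 5 of the 8 libraries. Of 26 markers of green tissue, 1 was listed, CB4B, at 18.4 to 120.1 normalised reads. Of the 39 members, 38 reached 10 normalised reads in 2 or more libraries and were tested. HSP7C did not, with 0 to 10 reads per library. In bulk root RNA, fewer cells of a type and less RNA per cell cannot be told apart.

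The members together took 1.29 and 0.933% of the reads in TC10 plants 2 and 4, 0.786, 0.665 and 0.886% in TC15 plants 2, 6 and 10, and 0.882, 0.797 and 1.21% in TC20 plants 3, 5 and 9. The Wilson 95% intervals of these shares, for counting error only, reached 0.00834 to 0.011 percentage points to either side. The highest shares therefore belonged to 1 plant of TC10 and 1 plant of TC20, and the lowest to TC15 plant 6. HS901, a cytosolic HSP90 that heat induces, made up 20.7% of the members' summed value in TC10 plant 2 and 15.7% in TC20 plant 9, against 4.46 to 8.40% in the other 6 libraries.

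**Figure D1:**
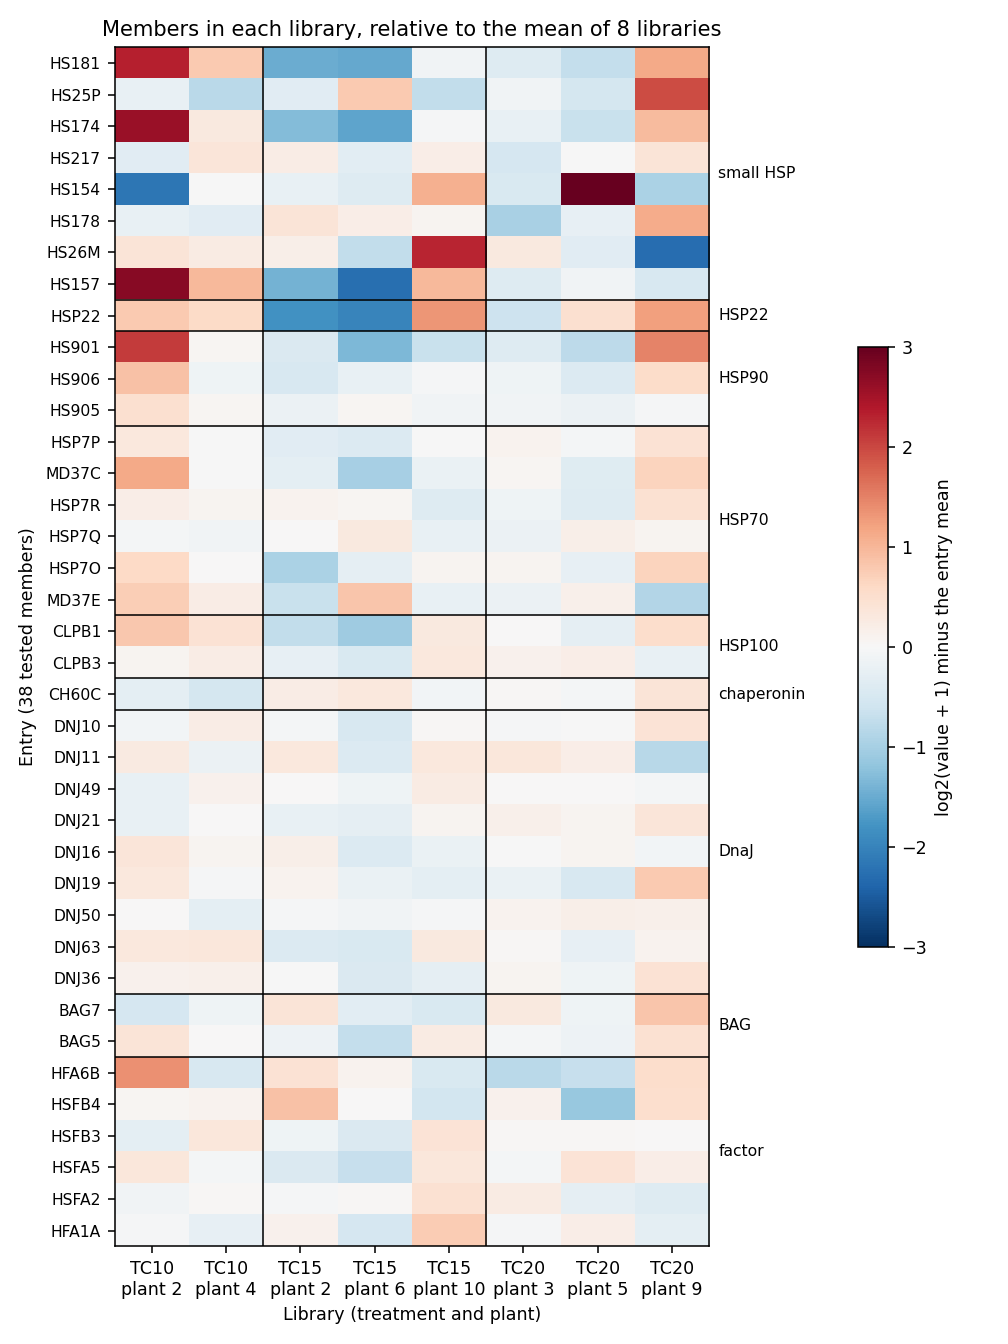
Each tested member (rows, grouped by class) in each of the 8 root libraries (columns, by treatment and plant), as log2(value + 1) minus the mean of that entry over the 8 libraries. The colour scale ends at 3, which HS154 exceeds in TC20 plant 5. HS181, HS174, HS901 and MD37C have their deepest red in TC10 plant 2 and are red again in TC20 plant 9, while most DnaJ rows are pale.

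The small heat shock proteins varied most between plants. HS181, a class I protein of the cytosol, had 4294 and 1473 normalised reads in TC10 plants 2 and 4, 304, 296 and 802 in TC15 plants 2, 6 and 10, and 654, 518 and 1878 in TC20 plants 3, 5 and 9. HS174, of the same cytosolic class, had 2257 and 456 in TC10, 151, 124 and 363 in TC15, and 321, 234 and 719.8 in TC20, with the plants in the same order. In both entries each TC15 plant lay below each TC10 plant, TC20 overlapped with TC10 and TC15, and the highest plant of each treatment was TC10 plant 2, TC15 plant 10 and TC20 plant 9. HS157, a small heat shock protein of peroxisomes, had 149 and 43.3 normalised reads in TC10, 7.46, 3.68 and 43.2 in TC15, and 16.2, 20.1 and 15.2 in TC20. Its TC15 values rested on 8, 3 and 49 reads, and TC15 plant 10 was about level with TC10 plant 4.

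The other small heat shock proteins did not share the full order of HS181 and HS174. HS25P, of plastids, had 429 and 286 normalised reads in TC10, 397, 866 and 298 in TC15, and 468, 349 and 1948 in TC20, so that TC20 plant 9 stood highest and the treatments overlapped. HS26M, of mitochondria, had 46.7 and 42.4 in TC10, 40.1, 20.9 and 176 in TC15, and 43.6, 28.0 and 6.51 in TC20, with TC15 plant 10 highest and TC20 plant 9 lowest. HSP22, the small heat shock protein of the endoplasmic reticulum, had 39.1 and 33.7 in TC10, 5.60, 4.91 and 57.3 in TC15, and 14.2, 31.5 and 53.2 in TC20. In HSP22 the plants of TC15 thus lay both below and above all other libraries. The highest plant of each treatment in HSP22 was the same as in HS181 and HS174. HS154 had 21.9 and 102 normalised reads in TC10, 88.6, 78.6 and 215 in TC15, and 75.0, 898 and 53.2 in TC20, where TC20 plant 5 alone was high. HS178, a further class I protein, ranged between 28.4 and 125 normalised reads, and HS217 between 282 and 517.

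Of the HSP90 entries, HS901 had 12044 and 2951 normalised reads in TC10 plants 2 and 4, 2080, 1105 and 1762 in TC15 plants 2, 6 and 10, and 2146, 1650 and 7856 in TC20 plants 3, 5 and 9. TC10 plant 2 and TC20 plant 9 stood apart from the other 6 libraries, which lay between 1105 and 2951. The mitochondrial HSP90 entry HS906 had 2528 and 1261 in TC10, 992, 1177 and 1350 in TC15, and 1262, 1041 and 2029 in TC20, with the same 2 libraries highest. HS905, the chloroplast HSP90, was steadier, with 1623 and 1201 in TC10, 1022, 1193 and 1071 in TC15, and 1073, 1013 and 1132 in TC20. Both TC10 plants were above the other 6 in HS905, TC10 plant 4 only just.

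Among HSP70 entries, the cytosolic MD37C had 8486 and 3842 normalised reads in TC10, 3133, 1947 and 3365 in TC15, and 4020, 3011 and 6136 in TC20. TC10 plant 2 and TC20 plant 9 were again the highest, and TC15 plant 6 the lowest. HSP7P, of the large HSP110-like branch of the family, had 5788 and 4612 in TC10, 3692, 3476 and 4655 in TC15, and 4985, 4447 and 6240 in TC20. Its order of libraries resembled that of MD37C over a narrower range of 1.80-fold. HSP7R lay between 689 and 1233 normalised reads, HSP7Q between 473 and 679, HSP7O, also HSP110-like, between 23.3 and 73.8, and MD37E between 11.9 and 41.8.

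CLPB1, the cytosolic HSP101 disaggregase that heat tolerance requires, had 3565 and 2780 normalised reads in TC10, 1224, 974 and 2504 in TC15, and 2077, 1693 and 2934 in TC20. All TC15 plants lay below both TC10 plants, although TC15 plant 10 was near them, and TC20 overlapped with both treatments. CLPB3, its chloroplast relative, ranged between 513 and 884 normalised reads and was highest in TC15 plant 10. The mitochondrial chaperonin CH60C had 605 and 512 in TC10, 860, 914 and 701 in TC15, and 757, 706 and 963 in TC20. Both TC10 plants were lowest in CH60C, while TC15 and TC20 overlapped.

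**Figure D2:**
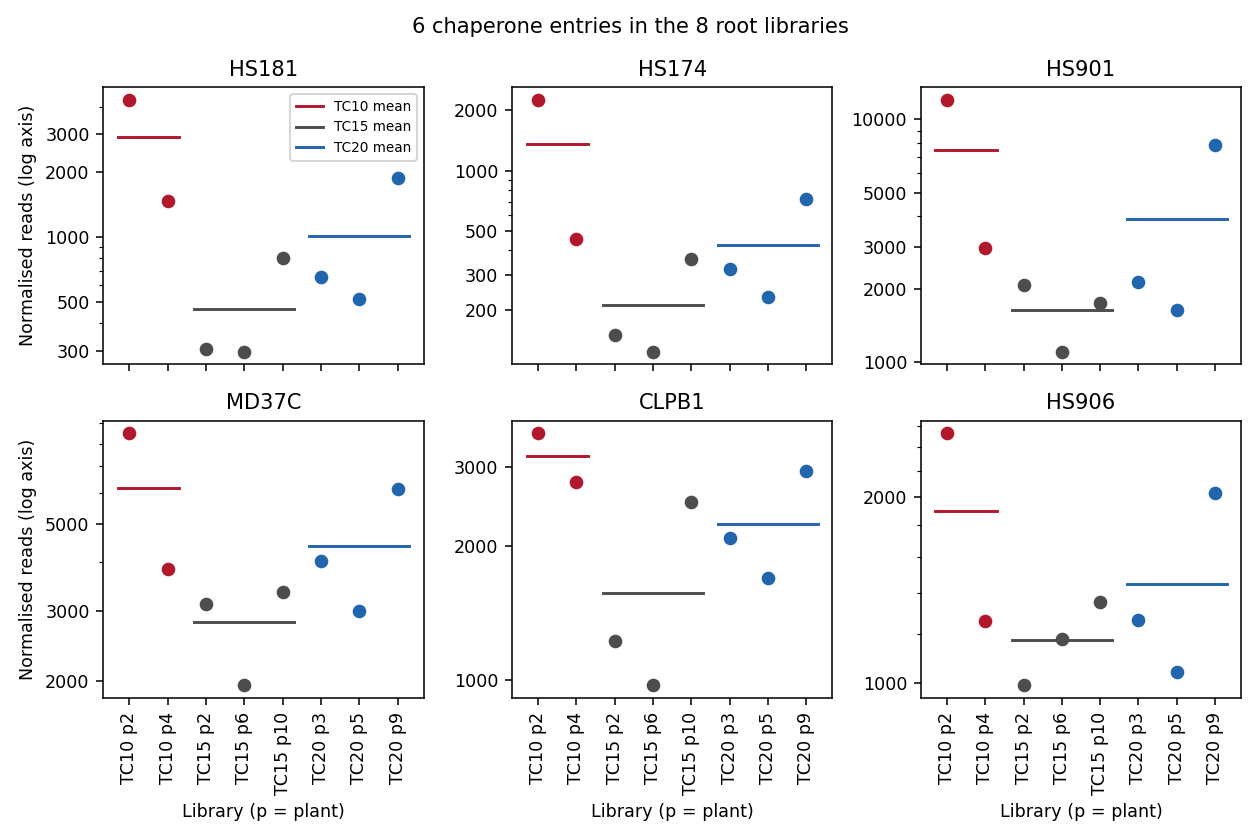
Normalised reads (log axis) of HS181, HS174, HS901, MD37C, CLPB1 and HS906 in the 8 libraries (points), with the mean of each treatment as a line. TC10 plant 2 is the highest library in all 6 panels and TC20 plant 9 the second highest, and the ratio between the highest and the lowest library is 18.2-fold for HS174 and 2.55-fold for HS906.

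The DnaJ co-chaperones varied over a narrow range between plants. The 9 DnaJ entries, the partners that deliver proteins to HSP70, had a ratio between highest and lowest library of 1.38-fold (DNJ49) to 2.41-fold (DNJ19), with a median of 1.74-fold, against 1.99-fold over all 4801 tested entries. DNJ10 ranged between 1443 and 2654 normalised reads, DNJ49 between 950 and 1314, and DNJ21 between 750.5 and 1162. DNJ16 lay between 552 and 938, DNJ19 between 323 and 777, DNJ50 between 368 and 512, and DNJ63 between 285 and 497. DNJ11, a chloroplast member, had 1066 normalised reads in TC20 plant 9 and 1437 to 2390 elsewhere. DNJ36 had 311 and 314 in TC10, 281, 210 and 234 in TC15, and 300, 260 and 379 in TC20. BAG7, which resides in the endoplasmic reticulum, had 1088 and 1412 in TC10, 2003, 1239 and 1116 in TC15, and 1894, 1401 and 2730 in TC20, and the treatments overlapped. BAG5 ranged between 370 and 837 normalised reads. The ratio between highest and lowest library was 2.51-fold for BAG7 and 2.26-fold for BAG5.

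Among the transcription factors, HFA6B had 1335 and 373 normalised reads in TC10, 697, 561 and 376 in TC15, and 293, 322 and 748 in TC20, and was high in the same libraries of TC10 and TC20 as HS901. HSFB4, known as SCHIZORIZA for its part in root tissue patterning, had 565 and 588 in TC10, 999, 548 and 374 in TC15, and 597, 249 and 774 in TC20, with no order by treatment. HSFB3 ranged between 307 and 554 normalised reads and HSFA5 between 243 and 525. HSFA2, which heat induces and which keeps the response going, lay between 147 and 266, and HFA1A, a main activator of the response, between 31.9 and 78.5.

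By class, the median ratio between highest and lowest library was 16.4-fold for the 8 small heat shock proteins and 2.69-fold for the 2 HSP100. It was 2.55-fold for the 3 HSP90, 2.48-fold for the 6 tested HSP70, 2.39-fold for the 2 BAG and 2.31-fold for the 6 factors. A ratio of at least 4-fold was seen in 12 of the 38 members, which compares with 21% of all tested entries. These were every small heat shock protein other than HS217, with HSP22, HS901, MD37C, HFA6B and HSFB4.

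Which plants carried the high values can be counted. TC20 plant 9 held the highest value of 13 members, against 21.1% of all tested entries, and TC10 plant 2 that of 10 members, against 18%. TC15 plant 6 held the lowest value of 18 of the 38 members, against 10.9% of all entries. For 12 members the 2 highest values were those of TC10 plant 2 and TC20 plant 9, against 9.73% of all entries, and these were HS181, HS174, HS901, HS906, MD37C, HSP7O, HSP7P, HSP7R, CLPB1, DNJ19, BAG5 and HFA6B. These 2 libraries also had the highest summed values, 4528493 normalised reads in TC10 plant 2 and 4142600 in TC20 plant 9, against 3706169 to 3867220 in the other 6.

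Plants of the same treatment also differed from each other. TC10 plant 2 was at least 2-fold over TC10 plant 4 in 7 members (HS181, HS174, HS157, HS901, HS906, MD37C and HFA6B), against 9.91% of all entries. TC20 plant 9 was at least 2-fold over the mean of TC20 plants 3 and 5 in 8 members (HS181, HS174, HS178, HS25P, HSP22, HS901, DNJ19 and HFA6B), against 10.3%. TC15 plant 10 was at least 2-fold over the mean of TC15 plants 2 and 6 in 7 members (HS181, HS174, HS157, HS154, HS26M, HSP22 and CLPB1), against 4.92%. HS181, HS174, HS901 and HFA6B met the conditions in both TC10 and TC20, against 3.46% of all entries, and HS181 and HS174 met all 3, against 0.354%. HS901 was 4.08-fold over in TC10, 4.14-fold in TC20 and 1.11-fold in TC15, so HS901 was not high in TC15 plant 10, unlike HS181 and HS174.

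Counted without a minimum, TC10 plant 2 was above plant 4 in 26 of the 38 members (49.5% of all entries), TC20 plant 9 above the mean of the other two TC20 plants in 27 (50.9%), and TC15 plant 10 above the mean of the other two TC15 plants in 25 (47.9%). The summed value of the root markers was the lowest of the 8 libraries in TC10 plant 2 and the highest in TC20 plant 9. Much of that sum was PER72, at 2935 normalised reads in TC10 plant 2 and 13397 in TC20 plant 9. Single root markers differed in direction. PHO1 and SKOR were lower in TC10 plant 2 and TC20 plant 9 than in the other plants of the treatment. PER64 was higher in TC10 plant 2 than in plant 4 and lay between the other TC20 plants in TC20 plant 9. CB4B, the single listed marker of green tissue, had 120.1 and 24.1 normalised reads in TC10 plants 2 and 4, 58.8, 18.4 and 110 in TC15, and 24.3, 35.8 and 23.9 in TC20. Its part in the difference between plants was not tested.

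**Figure D3:**
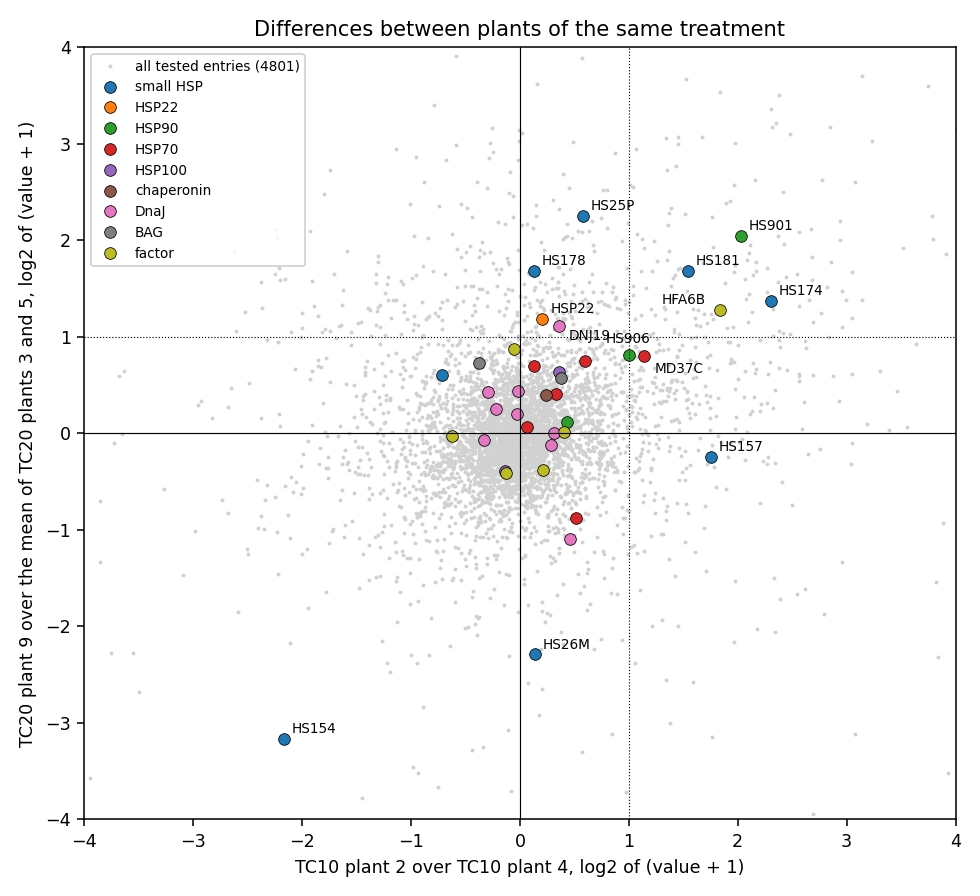
Differences between plants of the same treatment, as log2 of (value + 1): TC10 plant 2 over TC10 plant 4 (x axis) against TC20 plant 9 over the mean of TC20 plants 3 and 5 (y axis), with all 4801 tested entries in grey and the 38 tested members coloured by class. Dotted lines mark a 2-fold difference, 76 entries lie outside the axes, and HS901, HS181, HS174 and HFA6B lie beyond both lines.

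The series names a test of expression across the 3 treatments. No member passed it at an adjusted p of 0.05 with limma, where 0% of the 4801 tested entries passed, or with edgeR (0%), and the lowest adjusted p of a member was 0.813 with limma. With an unadjusted p under 0.05 there were 3 members (HS181, HS174 and CH60C), against 5.14% of all entries. Leaving out either of TC15 plants 2 and 6 gave 0 such members (2.99 and 3.11% of all entries). Leaving out TC20 plant 3 gave 1 (4.97%), and leaving out TC15 plant 10 gave 8 (6.87%). No such count is given with either TC10 plant left out, since a single TC10 plant then remained. How far the 3 members depend on the TC10 plants is therefore not shown by these counts. DESeq2, whose likelihood ratio test the series names, called none of the members and 0.694% of all entries, with the lowest adjusted p of 0.0861 for HS181. Without TC20 plant 9, DESeq2 called 3 members, HS181, HS174 and HS901, with no share of all entries called to set beside them. In that DESeq2 run 7 members had an unadjusted p under 0.05, beside 8.84% of all entries. With all 8 libraries these were 6 members and 8.74%.

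TC15 against TC10 asks how roots at 15% compost differed from roots at 10% in the same tailings. Members were lower in TC15 than in TC10 in 24 of 38 cases, with a median log2 change of -0.27, against -0.005 over all entries. That median was -0.17 with TC10 plant 2 left out, and likewise with TC15 plant 6 left out. None passed with limma (0% of entries) or edgeR (0%), and the lowest adjusted p was 0.731 with limma. An unadjusted p under 0.05 was reached by 7 members, against 6.62% of all entries. HS157 had the largest log2 change, -2.76 (SE 0.96), followed by HS181 with -2.59 (SE 0.71), HS174 with -2.41 (SE 0.78), HS901 with -1.90 (SE 0.78), CLPB1 with -1.13 (SE 0.41) and MD37C with -1.06 (SE 0.43). CH60C was higher in TC15, with a log2 change of 0.56 (SE 0.20).

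DESeq2 on the recovered reads called 2 members lower in TC15 than in TC10, HS181 (log2 change -2.63, adjusted p 0.045) and HS174 (-2.68, adjusted p 0.0492), beside 0.861% of the entries it gave an adjusted p. Without TC20 plant 9 it called HS181, HS174 and HS901, with no share of all entries called to set beside them. DESeq2 calls without TC10 plant 2 are not given, since a single TC10 plant was then left. In the run without TC20 plant 9, 7 members had an unadjusted p under 0.05, beside 10.0% of all entries. With all 8 libraries these were 7 members and 8.49%. The median log2 change of members with DESeq2 was -0.12 without TC10 plant 2, against -0.25 with all 8 libraries. Without TC10 plant 2 the limma log2 changes were -1.82 for HS181, -1.26 for HS174, -1.88 for HS157, -0.89 for HS901, -0.95 for CLPB1 and -0.49 for MD37C, and that of CH60C was 0.68. The limma count of 7 (6.62% of all entries) was 3 without TC15 plant 2 (4.7%) and 2 without TC15 plant 6 (4.24%). It was 10 without TC15 plant 10 (7.73%). The limma count without TC10 plant 2 or 4 is not given, for the same reason as the DESeq2 calls. The list of counts therefore does not show how far they depend on the TC10 plants.

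Counted by overlap, 9 members were lower in every TC15 plant than in every TC10 plant (HS181, HS174, HS157, HS901, HS905, MD37C, CLPB1, DNJ36 and DNJ63), against 12.3% of all entries. In the other direction 2 members were higher in every TC15 plant (CH60C and HS178), against 12.4%. By class, all 3 HSP90, both HSP100 and 5 of the 6 tested HSP70 had negative changes, as did 6 of 9 DnaJ entries with a median of -0.24. The small heat shock proteins divided into 3 negative (HS181, HS174 and HS157) and 5 positive, and the factors into 3 and 3.

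**Figure D4:**
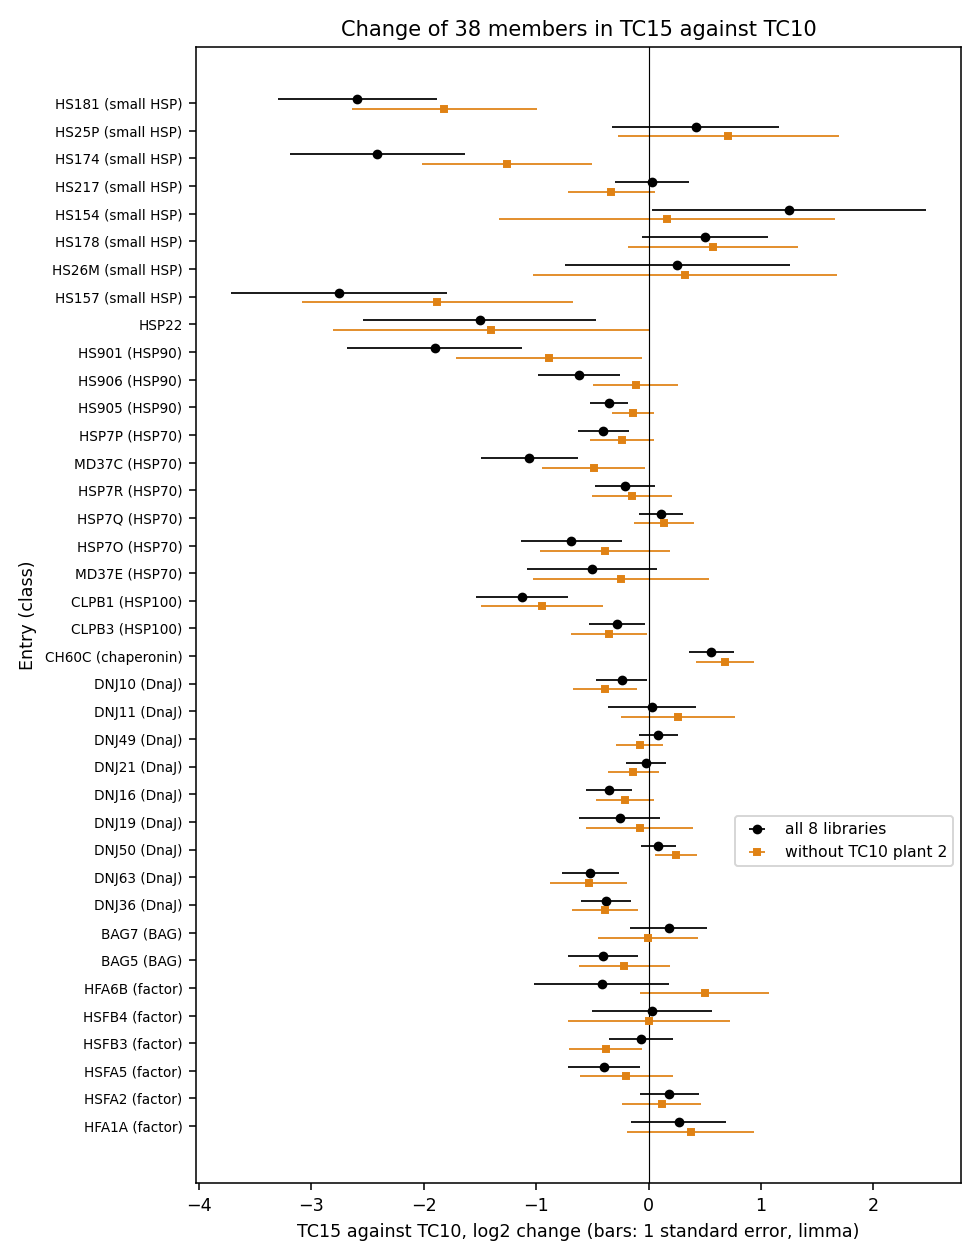
Change of the 38 tested members in TC15 against TC10 (log2 scale, 1 point per member, bars of 1 standard error from limma), with all 8 libraries (black circles) and without TC10 plant 2 (orange squares). HS181, HS174, HS157 and HS901 lie farthest to the left with all libraries and move toward 0 without that plant, while CH60C stays right of 0 at 0.56 and 0.68.

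In TC20 against TC10, 24 of 38 members had negative changes, with a median log2 of -0.11 against 0.002 over all entries. Leaving out 1 library moved that median to between -0.28 (TC20 plant 9) and 0.008 (TC10 plant 2), with -0.22 for TC10 plant 4, -0.069 for TC20 plant 3 and -0.036 for TC20 plant 5. None passed with limma (0%), edgeR (0%) or DESeq2 (0.277% of entries), the lowest adjusted p being 0.918 with limma and 0.569, for HS157, with DESeq2. CH60C alone had an unadjusted p under 0.05 with limma, against 4.29% of entries, at a log2 change of 0.52 (SE 0.20). Leaving out TC15 plant 10 gave 3 such members (4.2% of entries). Leaving out TC15 plant 6 or either of TC20 plants 5 and 9 gave 2 (3.5, 4.4 and 5.5%). No such count is given without TC10 plant 2 or 4, where a single TC10 plant was left, so dependence on these plants is not shown. The changes were -2.17 for HS157, -1.55 for HS181 and -0.98 for HS901, and that of HS901 was 0.038 without TC10 plant 2. Without overlap, 4 members were lower in TC20 (HS157, HS905, DNJ63 and MD37E; 9.23% of entries) and 3 higher (CH60C, DNJ21 and DNJ50; 9.31%).

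In TC20 against TC15, 25 of 38 members had positive changes, with a median log2 of 0.18 against 0.01 over all entries. None passed with limma (0.0208% of entries), edgeR (0%) or DESeq2 (0.214%), and none had an unadjusted p under 0.05 with limma, against 5.83% of entries. Leaving out TC15 plant 10 gave 5 such members (7.75% of entries) and a median of 0.30. Leaving out TC15 plant 2 or TC20 plant 9 gave 1 each (2.8 and 3.95%). The median was 0.12 with either TC20 plant 9 or TC15 plant 6 left out. HS181 differed by 1.04 and HS901 by 0.93 on the log2 scale, both with TC20 plant 9 far above the other two TC20 plants. No member was lower in every TC20 plant than in every TC15 plant (5.89% of entries), and 1 was higher, DNJ50 (6.98%), with 488, 512 and 503 normalised reads in TC20 and 445, 424 and 440 in TC15. The 3 pairwise comparisons share their groups and are not independent of each other.

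The labels give a stress score of each plant, on a scale they do not explain. It was 2 and 2 in TC10 plants 2 and 4, 3, 4 and 4 in TC15 plants 2, 6 and 10, and 2, 3 and 2 in TC20 plants 3, 5 and 9. The slope on the score was negative in 28 of 38 members, with a median of -0.17 log2 per point, against -0.007 over all entries. With treatment as a covariate 21 of 38 slopes were negative and the median was -0.099, and with TC15 plant 6 left out 24 were negative and the median was -0.09. DNJ36 had 300 to 379 normalised reads in the 4 plants scored 2. It had 260 and 281 in those scored 3 and 210 and 234 in those scored 4, so its levels did not overlap. DNJ36 was named after its values were seen, and how many of all entries separate by score in this way was not counted. HS901 had 2146 to 12044 in plants scored 2, 1650 and 2080 in plants scored 3, and 1105 and 1762 in plants scored 4.

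An unadjusted p under 0.05 was reached by 6 members, against 5.6% of all entries. Their slopes per point were -0.99 for HS181, -0.96 for HS901, -0.95 for HS174, -0.55 for MD37C, -0.47 for CLPB1 and -0.27 for DNJ36. None passed after adjustment with limma (0% of entries; lowest adjusted p 0.731), edgeR (0%) or DESeq2 (0.117% of entries; lowest 0.145, for HS901). The score goes with the treatment, since no TC15 plant scored 2. With treatment as a covariate the slopes were -0.95 for HS901, -0.51 for MD37C and -0.36 for DNJ36, but -0.21 for HS181, -0.27 for HS174 and -0.10 for CLPB1. The count of 6 was 2 without TC15 plant 6 (4.66% of all entries) and 12 without TC15 plant 10 (5.22%).

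Root zinc was 491 and 637 ug/g in TC10 plants 2 and 4, 373, 565 and 1075 ug/g in TC15 plants 2, 6 and 10, and 215, 277 and 174 ug/g in TC20 plants 3, 5 and 9. Per doubling of root zinc, BAG7 differed by -0.42 and HS26M by 1.08 on the log2 scale, and these 2 members had an unadjusted p under 0.05, against 4.25% of entries. BAG7 was highest, at 2730 normalised reads, in the root with least zinc, and HS26M was highest, at 176, in the root with most. With TC20 plant 9 left out, the root with least zinc, no member had an unadjusted p under 0.05, where 2.15% of entries did. With treatment as a covariate the slopes were -0.58 for BAG7 and 1.64 for HS26M, and 4 members had an unadjusted p under 0.05, where 12.3% of all entries did. No member passed for zinc with limma (0%), edgeR (0%) or DESeq2 (0.116% of entries), and the lowest adjusted p was 0.918 with limma and 0.316, for BAG7, with DESeq2.

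Root lead was 70 and 52 ug/g in TC10, 10, 37 and 56 ug/g in TC15, and 31, 59 and 38 ug/g in TC20. For lead the members with an unadjusted p under 0.05 were HS157 (1.14 per doubling), HSP22 (1.05) and HSFB4 (-0.48), 3 of 38 against 6.87% of entries. Leaving out TC20 plant 5 gave 8 such members (5.9% of entries) and leaving out TC15 plant 6 gave 6 (7.02%). Leaving out TC15 plant 2 gave 1 (5.31%), and lead on a linear scale gave 7 (7.29%). HSFB4 had its highest value, 999 normalised reads, in the root with 10 ug/g, and its lowest, 249, in the root with 59 ug/g. Arsenic stood at 129 and 171 ug/g in the TC10 roots, 36, 117 and 216 ug/g in TC15, and 65, 105 and 107 ug/g in TC20. For arsenic HSP22 alone reached an unadjusted p under 0.05, at 1.09 per doubling, against 5.1% of entries. Leaving out TC15 plant 6 gave 4 such members (5.68% of entries), and leaving out either of TC20 plants 5 and 9 gave 2 (5.15 and 6.35%). None was left without TC10 plant 2 or 4, TC15 plant 2 or 10, or TC20 plant 3, where 2.03 to 7.93% of entries were. No member passed for lead with limma (0%), edgeR (0.0417% of entries) or DESeq2 (0.794%), or for arsenic with limma (0%), edgeR (0%) or DESeq2 (0.219%). The lowest adjusted p with DESeq2 was 0.26 for lead (HS181) and 0.458 for arsenic (HSP22).

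**Figure D5:**
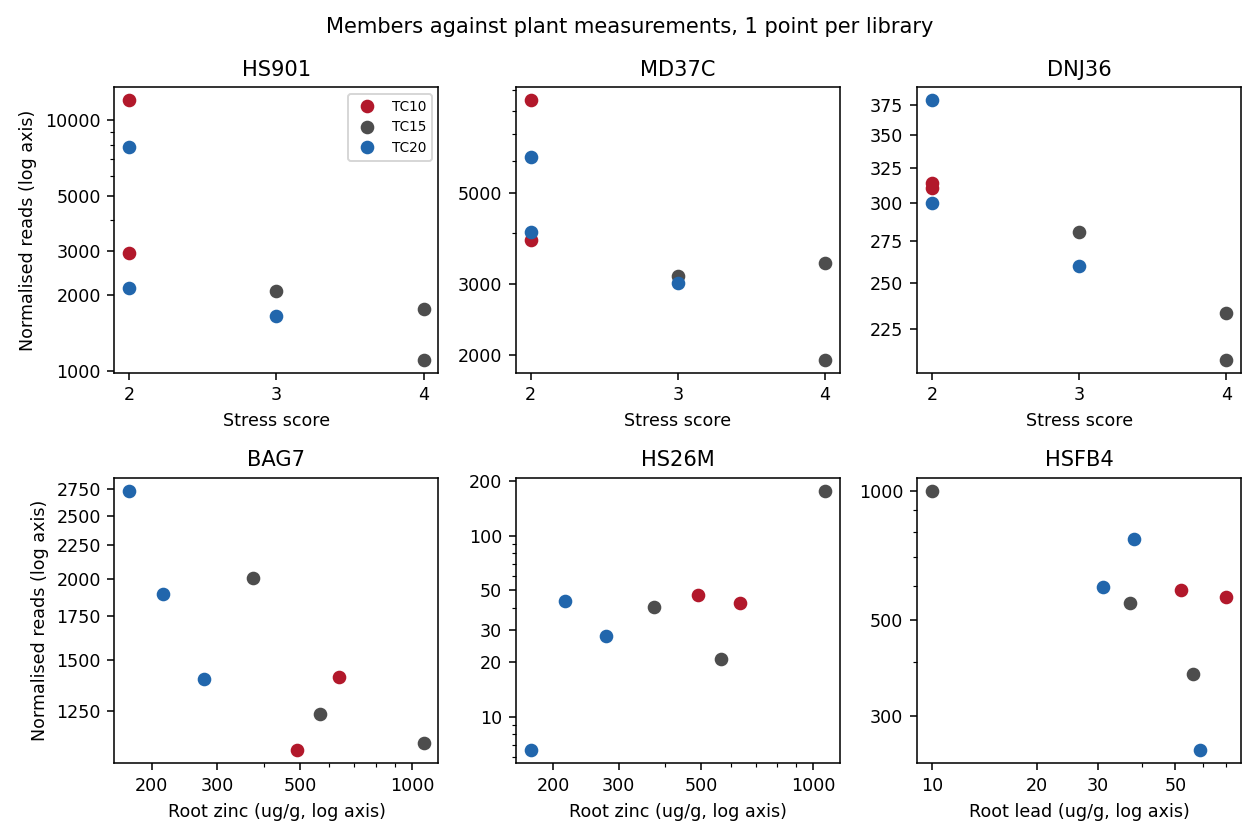
Normalised reads (log axis) of HS901, MD37C and DNJ36 against the stress score, of BAG7 and HS26M against root zinc and of HSFB4 against root lead (ug/g, log axes), with 1 point per library coloured by treatment. DNJ36 is lower at each higher score, without overlap, and the highest HS26M value is a single TC15 root with 1075 ug/g zinc.

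Other genes of protein folding were taken from a list of 128 names, of which 43 were listed and 41 tested. None passed with limma or edgeR in any of the 8 comparisons. DESeq2 called 1, IRE1A, named after the sensor of unfolded proteins in the endoplasmic reticulum, across treatments (adjusted p 0.0112), in TC15 against TC10 (0.0312) and in TC20 against TC10 (0.042). IRE1A had 5201 and 3086 normalised reads in TC10 plants 2 and 4, 1827, 1406 and 2238 in TC15 plants 2, 6 and 10, and 1638, 1850 and 1923 in TC20 plants 3, 5 and 9. With limma its log2 change was -1.16 (SE 0.27, adjusted p 0.731) in TC15 and -1.15 (SE 0.27, adjusted p 0.918) in TC20, each against TC10. Both TC10 plants were above the other 6, and TC20 plant 9 was not high in IRE1A, unlike in HS901.

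HSOP3, a co-chaperone that links HSP70 with HSP90, had 6267 and 4095 normalised reads in TC10, 2229, 1980 and 3510 in TC15, and 3263, 3067 and 4605 in TC20. Its relative HSOP2 had 320 and 241, 437, 158 and 288, and 115, 176 and 72.7 in the same plants, so TC20 plant 9 was its lowest library and HSOP3's second highest. GOLS1, the galactinol synthase that heat stress factors induce, had 3164 and 1050 in TC10, 260, 210 and 1162 in TC15, and 651, 428 and 1317 in TC20, close to the order of HS181. The factor entry HFB2B had 1827 and 535 in TC10, 513, 318 and 823 in TC15, and 623, 556 and 1345 in TC20, also with TC10 plant 2 and TC20 plant 9 highest. HFB2B was named after its values were seen.

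The other named entries of this list had ratios between highest and lowest library below 2-fold. The chloroplast division protein ARC6, which carries a DnaJ-like domain, ranged between 212 and 312 normalised reads, F10AL between 1128 and 2127, the chaperonin subunit TCPE between 1328 and 2103 and the prefoldin subunit PFD2 between 458 and 644. CLPX1 and CLPR4, of the Clp protease system, lay between 1290 and 2355 and between 241 and 336, the disulfide isomerase PDI51 between 221 and 389, and the protease LONM1 between 212 and 393. Of the 41 tested, 25 were lower in TC15 than in TC10 with a median log2 of -0.16, and 31 had a negative slope on the stress score. TC10 plant 2 and TC20 plant 9 held the 2 highest values of 7 of them, against 9.73% of all entries.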

How the data were processed

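Root RNA of single plants was made into stranded total RNA libraries, per the labels' protocols. The tools kallisto, DESeq2, Trim Galore and FastQC are listed, per the submitters' processing notes. Not given in the sources used here are versions, the transcript reference and the naming of entries. The deposited values are a normalised signal per entry, which the authors made by dividing read counts by 1 factor per library: 100% of values were whole reads, to a tolerance of 0.001 read. Entries absent from a library's file were set to 0. The main test was limma 3.58.1 (R 4.3.3, with a trended prior) on log2(value + 1). The 4801 entries tested reached 10 in 2 or more libraries, and p-values were adjusted over all of them (Benjamini-Hochberg) with a threshold of 0.05. Fold changes on that scale understate changes of low entries. The tests were an F test across treatments, 3 pairwise contrasts, and slopes per doubling of root zinc, arsenic and lead and per point of the stress score. An adjusted p is from limma unless another tool is named. On the recovered reads, edgeR 4.0.16 (quasi-likelihood) called 0 entries across treatments and DESeq2 1.42.0 (no prior filter) called 35. The code was tested on simulated data.

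Members and lists were chosen with earlier results of these data known. Named members are HS181 and HS901, those past the threshold with any tool, per class up to 3 with the largest mean and the 1 with the smallest F p, and the 8 with the largest ratio between libraries at a mean of at least 20. Related genes were named where they passed with any tool, and per class up to 2 with the smallest F p. Others named were chosen after their values were seen. The labels name separate plants, so p-values measure the spread between plants. No sequences or coordinates were used. The intervals of the library shares cover counting error only, not the spread between plants. The reads have no molecular identifiers, so copied reads were not removed from these counts.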

Additional observations from a re-analysis of the deposited data

How the results depend on the processing

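The number of members past the threshold was 0 in all 8 comparisons with limma, under each filter, pseudocount and scaling, with edgeR, and when any single library was left out. DESeq2 called 2 in TC15 against TC10 and, in an alternative chosen after seeing the data, 3 without TC20 plant 9 there and 3 across treatments. For the run without TC20 plant 9, the share of all entries called is not given here. HS901 in TC20 against TC10 was 0.39 with DESeq2 without TC10 plant 2, and lay between -1.99 and 0.038 with limma when single libraries were left out. The causes were not tested. The median change of members in TC20 against TC10 was -0.11, and 0.008 without TC10 plant 2. Scaling to the library total (CPM) moved the median log2 change of all entries in TC15 against TC10 to 0.13 and that of members to -0.14, so members stood below all entries under each scaling. Leaving out TC10 plant 2 or 4 leaves 1 plant, which is then assumed to vary like the other groups. Depth limits HS157, HS26M, HSP22 and HSP7C, which had under 10 reads in some libraries. No paired analysis was possible because TC10 and TC15 share only plant number 2, and the other groups share fewer than 2 numbers among the libraries used.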
